A study of Mus musculus with 24 samples.

Results

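Nefm, Nefl, Ephx2 and Rcbtb1 are 4 of the 48985 genes of the deposited count table, and each was found in it by its Ensembl identifier. They were chosen by their total counts, as genes of mouse chromosome 14 that were nearly lost in 1 recombined cell clone, d3 clone 21, against its parental line. The loss in that clone is how they were found and is given as a description without a test. The counts of each gene had been split between a 129S1 and a CAST allele, and all 4 genes were read almost wholly from 129S1 in the other lines.

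The cells were the F121/9 line, female mouse embryonic stem cells of an F1 hybrid that carries 1 genome of 129/Sv and 1 of CAST/EiJ, grown in serum-free medium with LIF and inhibitors of MEK and GSK-3β (2i+LIF), which keeps stem cells in the naive state. Each of 5 recombinations (d3, d6, i7, i12 and i10 in the labels) had a parental line (genotype label "control") and 1 or 2 recombined clones. The recombination d3 gave clones 12 and 21, i7 gave clones 7 and 12, and d6, i12 and i10 gave 1 clone each, named clone 16, clone 10 and clone 18. The 12 lines were each sequenced as 2 replicates, described as biological, which gives 24 libraries, and the question was how gene expression changed on recombination. Every recombined line is 1 clone, so what recombination did and what sets that clone apart cannot be told apart, and the labels used here do not say where in the genome each recombination lies.

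Nefm and Nefl encode the medium and light neurofilament proteins, subunits of the intermediate filaments that fill the axons of neurons. Both genes lie side by side on the chromosome and are textbook markers of neurons rather than of stem cells. Ephx2 encodes soluble epoxide hydrolase, which turns epoxides of fatty acids, among them those made from arachidonic acid, into diols. Rcbtb1 encodes a protein with RCC1 repeats and a BTB domain, a domain that in related proteins binds the CUL3 ubiquitin ligase scaffold. In an F1 hybrid both alleles share 1 nucleus, so a difference between them is measured against the same set of trans-acting factors.

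By GENCODE M21 on GRCm38, Rcbtb1 (ENSMUSG00000035469.17) lies on the plus strand of chromosome 14 from 59201209 to 59237265. Ephx2 (ENSMUSG00000022040.8) lies on the minus strand from 66084374 to 66124500. Nefm (ENSMUSG00000022054.11) is annotated on the minus strand from 68082590 to 68124846, and Nefl (ENSMUSG00000022055.7) on the plus strand from 68083863 to 68089095. The Nefl interval lies inside that of Nefm, because 1 of the 2 annotated Nefm transcripts reaches over it, and the exons of the pair share 1108 bases on opposite strands. The libraries were stranded, but the strand setting of the counting is not given in the sources used here, so counts from those shared bases could belong to either gene. Neurofilament genes also resemble each other in sequence. The longest exact stretch that the Nefl transcript shares in the same sense with either Nefm transcript has 17 bases, shorter than a read. It is shown as the longest stretch where transcripts of the pair read alike. Only exact matches in the same sense were searched. Stretches alike with mismatches and the 1108 bases shared on opposite strands are not covered, so how far reads of the pair could be confused was not tested.
Nefl and Nefm, shared stretch: gccgaagagtggttcaa

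Of the 4 genes, 1 (Rcbtb1) had an entry in the RefSeq promoter table (GRCm38.p6). Its window, chr14:59200978-59201277 on the plus strand, is shown because no other of the 4 genes had an entry. The sequence is that of the reference strain and not of 129S1 or CAST. Capitals mark matches to CACGTG and to GGGCGG on either strand.
Rcbtb1 promoter: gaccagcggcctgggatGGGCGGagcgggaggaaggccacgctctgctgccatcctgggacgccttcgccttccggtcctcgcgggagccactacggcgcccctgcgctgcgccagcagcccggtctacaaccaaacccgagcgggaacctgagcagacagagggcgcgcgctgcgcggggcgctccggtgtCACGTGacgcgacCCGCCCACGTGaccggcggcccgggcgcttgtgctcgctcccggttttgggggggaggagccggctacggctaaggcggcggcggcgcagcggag
This window had a GC content of 74.3%, with 41 CpG dinucleotides. It held 2 matches to CACGTG, which is present in 7.17% of the 32544 promoters of the table, and 2 to GGGCGG, which is present in 35.9%. The second GGGCGG match, read on the minus strand, overlaps the second CACGTG by 1 base. No match to CCAAT was found in it on either strand (37.4% of promoters hold one), nor to the letters TATAAA (13.6%), nor to the cAMP response element TGACGTCA (1.80%).

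Library totals ran from 3286819 to 15581094 counts, and the 129S1 allele held 49.5% to 52.4% of them. Naive stem cell genes (10 genes, among them Pou5f1 and Nanog) summed to 6148 to 8649 CPM (counts scaled to library size) in every library. A list of 12 neural genes summed to 144.5 to 230.6 CPM. Most of that sum came from Mapt, Nes and Tubb3, with median levels of 63.6, 47.2 and 43.7 CPM. Dcx was the only 1 of the 12 at 0 in every library. Lists of primitive endoderm and fibroblast feeder genes summed to at most 8.92 and 25.7 CPM. In bulk samples, a change in the number of cells that express a gene and a change in RNA per cell cannot be told apart.

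Outside d3 clone 21, CAST counts of Ephx2, Nefm and Nefl were near the limit of detection, taken as 3 counts. They were at or under it in 21, 17 and 15 of the 22 libraries, against 2 of the 22 for Rcbtb1. Over these 22 libraries Ephx2 had 5957 counts from 129S1 and 15 from CAST, a 129S1 share of 99.7% (95% Wilson interval 99.6% to 99.8%). Its CAST counts per library ran from 0 to 4, with 0 in 12 of the 22 libraries. Such intervals cover counting error only.

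Nefm followed closely, with 7782 counts from 129S1 and 46 from CAST over the 22 libraries, a share of 99.4% (99.2% to 99.6%). Its CAST counts per library ran from 0 to 7, with a median of 1. Its partner Nefl had 2082 and 62 counts, a share of 97.1% (96.3% to 97.7%), with 0 to 10 CAST counts per library. Rcbtb1 was the gene whose CAST allele was measured best. It had 8031 and 322 counts, a share of 96.1% (95.7% to 96.5%), and CAST counts of 2 to 34 per library with a median of 14.5.

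Shares this high were uncommon. Of 12262 autosomal genes that averaged at least 20 counts, 1.91% had a 129S1 share as high as that of Ephx2, 2.36% as high as that of Nefm, 3.69% as high as that of Nefl and 4.00% as high as that of Rcbtb1. The choice of genes by their loss in d3 clone 21 favours genes with a high 129S1 share, since that clone had lost most 129S1 counts of the chromosome, so these percentages describe the genes and were not tested.

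**Figure D1:**
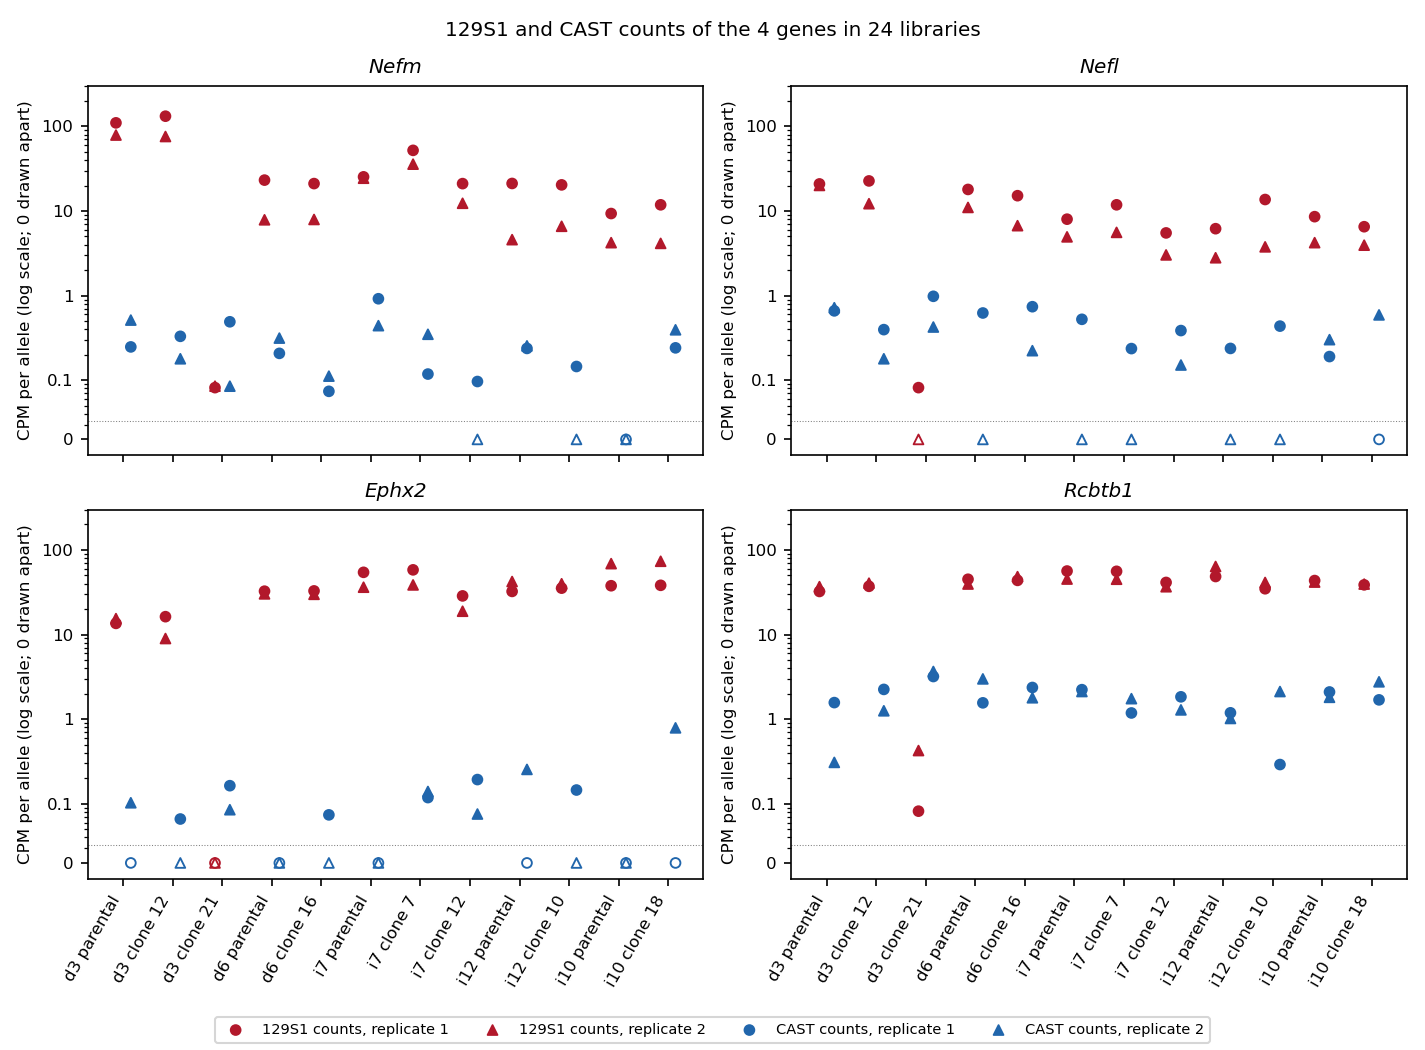
CPM assigned to the 129S1 (red) and the CAST (blue) allele of Nefm, Nefl, Ephx2 and Rcbtb1 in each of 24 libraries, on a log scale with counts of 0 drawn as open symbols below the dotted line; circles are replicate 1 and triangles replicate 2. In the 22 libraries outside d3 clone 21 every red symbol lies above the blue symbols of its gene, and in d3 clone 21 the red symbols fall to the level of the blue ones or below.

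Within a line, 129S1 and CAST counts were compared in the 10 lines whose values had not chosen the genes, with edgeR's quasi-likelihood test and Benjamini-Hochberg adjustment over 16253 genes, a gene being called at an adjusted p under 0.05. The 129S1 allele was called higher in 40 of 40 such comparisons, 10 lines for each of the 4 genes. The share of all tested genes called with 129S1 higher was 25.9% in d3 clone 12, 24% and 25.2% in d6 parental and clone 16, 24.3%, 24.8% and 24.6% in i7 parental, clone 7 and clone 12, 19.6% and 20.6% in i12 parental and clone 10, and 20.1% and 20.2% in i10 parental and clone 18. In each of the 10 lines at once it was 13%. A call of this kind is therefore common in these cells. All lines come from the same F1 hybrid, and the choice of the genes favours a high 129S1 share. The 40 calls therefore describe the genes and are no independent evidence of a bias. The size of the ratio is given gene by gene.

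For Rcbtb1 the log2 ratio of 129S1 to CAST ran from 4.10 (SE 0.337) in i10 clone 18 to 5.64 (SE 0.383) in the i12 parental line. In the i12 parental line the 2 libraries had 204 and 250 counts from 129S1 against 5 and 4 from CAST. In i10 clone 18 they had 160 and 200 against 7 and 14. Adjusted p-values from edgeR's test ran from 1.36e-14 in i7 clone 7 to 1.12e-10 in i10 clone 18.

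For Nefl, the gene with the fewest counts, the log2 ratio ran from 3.91 (SE 0.682) in i10 clone 18 to 6.28 (SE 0.538) in i7 clone 7. In i10 clone 18 the 2 libraries held 27 and 20 counts from 129S1 against 0 and 3 from CAST. The largest adjusted p of any of the 40 comparisons, 5.10e-05 by edgeR's test, belonged to Nefl in the i12 parental line, where 26 and 11 counts from 129S1 stood against 1 and 0.

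For Ephx2 and Nefm several lines held no CAST count, and there the ratio is a lower bound, taken against 3 counts per library. Ephx2 was at least 137-fold higher from 129S1 in the i7 parental line (414 and 410 counts against 0 and 0), at least 80.04-fold in the d6 parental line (313 and 192 against 0 and 0) and at least 72.1-fold in the i10 parental line (198 and 228 against 0 and 0). Nefm had no CAST count in the i10 parental line, where 49 and 14 counts from 129S1 gave at least 9.18-fold. The highest CAST level of Ephx2 outside d3 clone 21 was 0.789 CPM, 4 counts in i10 clone 18 replicate 2, and the other library of that clone had none. The highest of Nefm was 0.919 CPM, 7 counts in i7 parental replicate 1.

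In d3 clone 21 the 129S1 counts of all 4 genes were at or near 0. Nefm went from 1333 and 768 counts from 129S1 in the 2 parental libraries to 1 and 1 in the clone. Nefl went from 253 and 195 to 1 and 0. Ephx2 went from 164 and 150 to 0 and 0, at least 57.8-fold lower against the floor of 3 counts per library. Rcbtb1 went from 391 and 358 to 1 and 5. Parental and clone libraries were far apart for each of the 4 genes.

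What the clone still held came mostly from CAST. The total of Nefm fell from 94.9 ± 21.8 CPM (SD, n = 2) to 0.371 ± 0.285 (n = 2), which left 0.389% of the parental level (95% counting interval 0.177% to 0.739%), 9 counts in all of which 7 were from CAST. Nefl kept 3.54% (2.08% to 5.66%), from 21.2 ± 0.560 CPM to 0.744 ± 0.451, with 17 of its 18 counts from CAST. Ephx2 kept 0.867% (0.178% to 2.56%), from 14.5 ± 1.40 to 0.124 ± 0.0555 CPM, which rests on 3 counts, all from CAST. Rcbtb1 kept 10.4% (8.24% to 12.98%), from 35.5 ± 2.29 to 3.68 ± 0.574 CPM, with 82 of 88 counts from CAST. The interval of Rcbtb1 lies above the others, while that of Ephx2 overlaps both that of Nefm and that of Nefl.

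The CAST counts are given gene by gene, and the intervals of their ratios overlap between the genes. Nefm had 3 and 5 CAST counts in the parental libraries and 6 and 1 in the clone, a ratio of 0.797 (0.246 to 2.52), and Nefl had 8 and 7 against 12 and 5, a ratio of 1.03 (0.485 to 2.22). Ephx2 had 0 and 1 against 2 and 1, too few to place (2.73, 0.219 to 143). Rcbtb1 had 19 and 3 CAST counts in the parental libraries and 39 and 43 in the clone, a ratio of 3.40 (2.10 to 5.71). At 3.19 and 3.66 CPM, both clone libraries lay above the CAST level of Rcbtb1 in each of the 22 other libraries, the highest of which was 2.99 CPM in d6 parental replicate 2. The 2 parental libraries, 1.57 and 0.308 CPM, were far apart, so the size of the ratio rests in part on the parental replicate with 3 counts.

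These values stand within a shift of the whole chromosome in d3 clone 21. Over 359 genes of chromosome 14 with a 129S1 share of 20% to 80%, the median log2 change was -6.43 for 129S1, 1.02 for CAST and 0.05 for the total, against a median of -0.01 for the total over all tested genes. The totals of single genes among the 359 ranged from -1.26 to 1.33 (fitted log2). Over all genes, 0.0554% were called lower in this clone by edgeR's test, and since that contrast chose the 4 genes, nothing is read from their place in it.

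Ranked by fitted log2 change of the total among the 444 chromosome 14 genes that averaged at least 20 counts, Nefm (-7.93), Ephx2 (-6.71) and Nefl (-4.80) were the 3 lowest and Rcbtb1 (-3.27) was number 5. Between Nefl and Rcbtb1 stood Gm19098 (-3.63), a processed pseudogene with a 129S1 share of 100%. Just outside stood Gm17210 (-2.53), an antisense gene with a share of 93.9%, and Neil2 (-2.42), a DNA glycosylase gene with a share of 92.0%. After those the next gene, Saysd1, was at -1.26. The ranking uses the values that chose the 4 genes, so their place in it describes the choice and is no further result.

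The other genes of chromosome 14 with a high 129S1 share are described by their counts, with no test. On chromosome 14, 20 genes had a share at least as high as that of Rcbtb1, 4.50% of the 444, against 4.24% of 12715 genes genome-wide. The 16 others beside Nefm, Nefl, Ephx2 and Rcbtb1 had a median log2 change of -0.27 in the total, and 1 of them, Gm19098, fell below -1. Of the 16, 14 were annotated or named as pseudogenes, most of them processed pseudogenes, which are copies of the transcript of a gene located elsewhere.

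Most of those other genes also kept their counts from 129S1 while the balanced genes of the chromosome lost theirs. The median 129S1 level left in d3 clone 21 was 82.8% of the parental one over the 16, and 15 of them kept at least 50%, the exception being Gm19098 at 7.81%. Gm1821, the most abundant, had 2789 CPM from 129S1 in the parental line and 2630 CPM in the clone. Over the 4 described genes what was left was 0.0883% (Nefm), 0.200% (Nefl), 0% (Ephx2) and 0.734% (Rcbtb1). The 2 that are neither annotated nor named as pseudogenes, Phf11c and AY358078, stood at 135% and 131% of the parental 129S1 level. Reads of pseudogenes and of gene families can be shared with near-identical copies, so their assignment to chromosome 14 is uncertain, and whether that bears on these values was not tested.

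**Figure D2:**
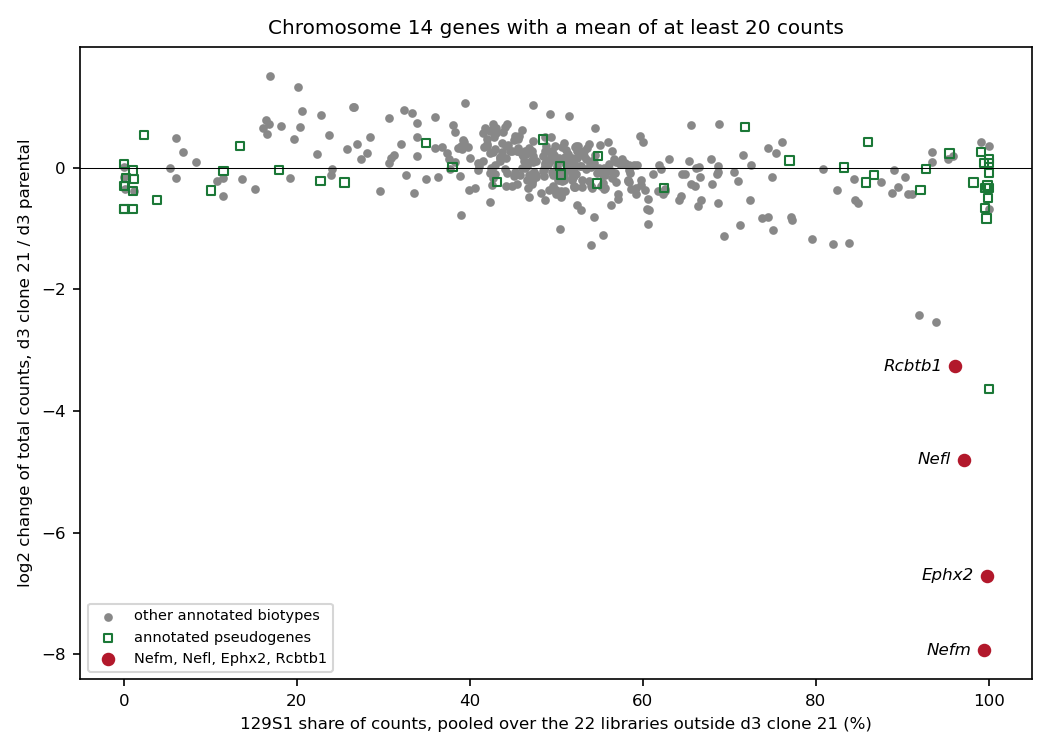
Each point is 1 of 444 chromosome 14 genes, with its 129S1 share of counts pooled over the 22 libraries outside d3 clone 21 (x axis, percent) and the fitted log2 change of its total counts in d3 clone 21 against the d3 parental line (y axis); green squares are annotated pseudogenes. Nefm, Ephx2, Nefl and Rcbtb1 (red) lie at the lower right between -7.93 and -3.27, while most other genes with a share near 100% lie near 0.

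Most genes around the 4 had lower 129S1 shares. The 5 nearest tested genes on each side gave 30 distinct neighbours, with a median 129S1 share of 48.9%, against 96.1% to 99.7% for the 4 genes. By edgeR's test, 5 of the 30 had 129S1 higher in each of the 10 lines and 5 had CAST higher in each, against 13% and 13.7% of all tested genes. A share at least that of Rcbtb1 was found in 1 of the 30, against 4.24% of 12715 genes that averaged at least 20 counts. The neighbours were thus near the background. The choice of the 4 favours a high share, so the contrast is no result about their surroundings. Nefm and Nefl, both near 100%, sit between Dock5 at 52.7% and Slc25a37 at 51.2%. Ephx2 sits between Gulo at 79.2%, which had a mean of 6.55 counts, and Ptk2b, a tyrosine kinase gene, at 58.4%.

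Rcbtb1 has the most uneven surroundings. On 1 side lie the pseudogene Gm9022 at 0.251% and Micu2, which encodes a regulator of the mitochondrial calcium uniporter, at 16.1%. On the other lie Phf11a at 0.0284%, Phf11b at 0%, Phf11d at 66.5% and Phf11c at 99.1%. The Phf11 genes are similar copies of each other, so how reads were divided among them is uncertain. Mrpl57, a mitochondrial ribosomal protein gene with a share of 95.3%, lies 4 tested genes away from Rcbtb1. In d3 clone 21 the 129S1 counts of Mrpl57 changed by 0.11 (log2) and its total by 0.15, unlike those of Rcbtb1. The median 129S1 change of the balanced genes of the chromosome was -6.43. Whether the reads counted for Mrpl57 stem from chromosome 14 was not tested.

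**Figure D3:**
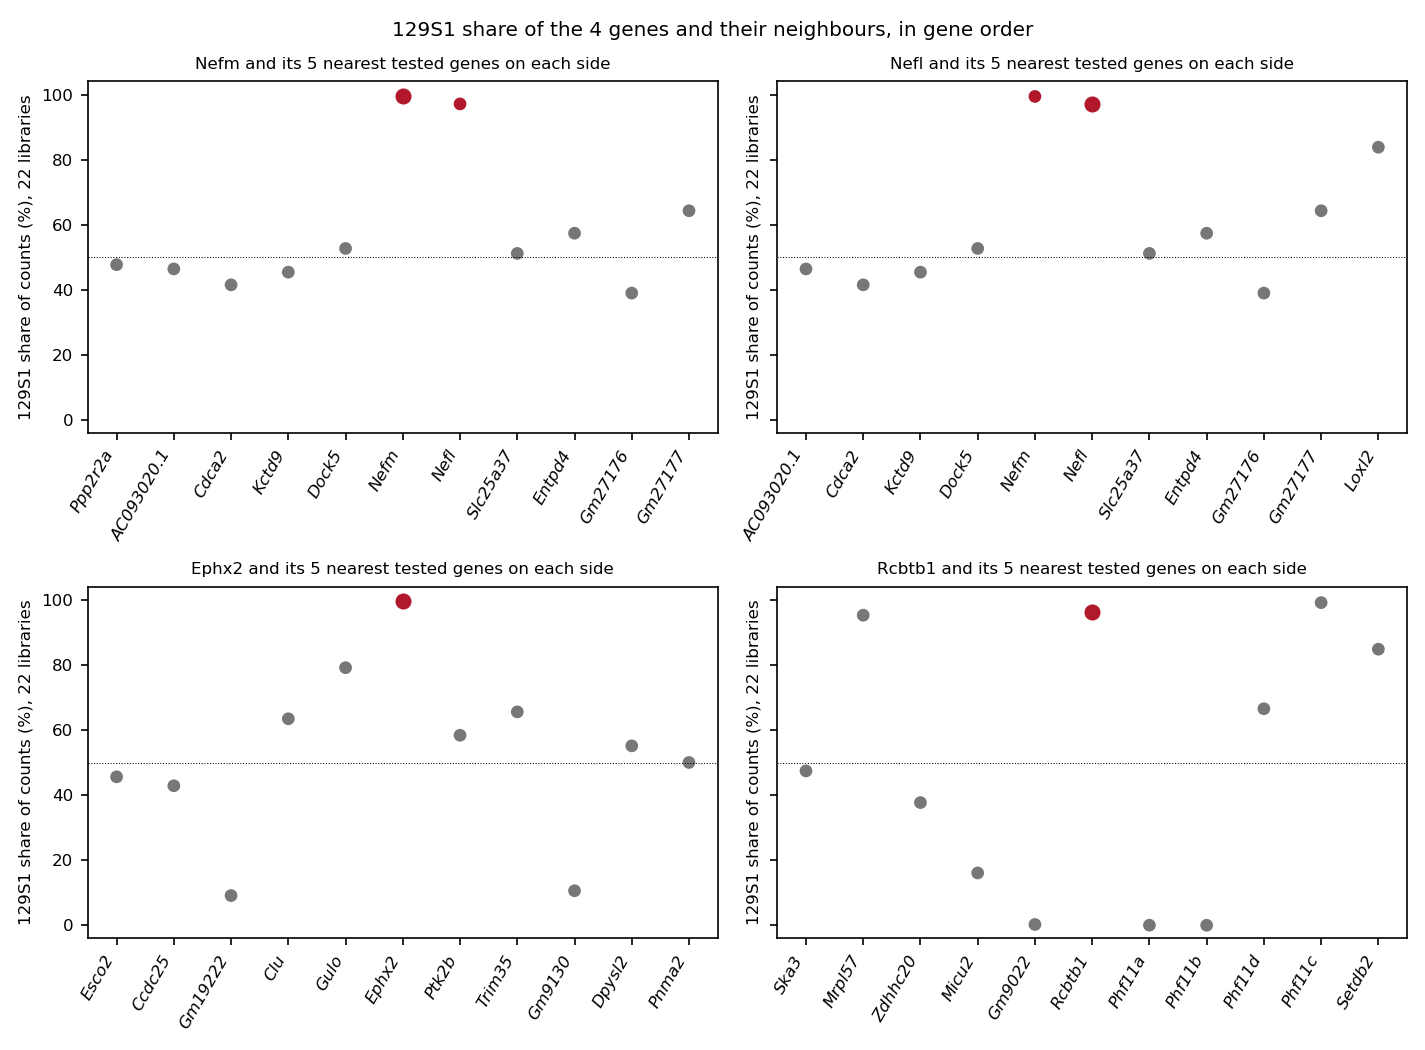
The 129S1 share of counts pooled over 22 libraries (y axis, percent) of each of the 4 genes and of its 5 nearest tested genes on either side, in gene order along chromosome 14 (x axis, not to scale); red points are Nefm, Nefl, Ephx2 and Rcbtb1, grey points the others, and the dotted line marks equal shares. Nefm, Nefl and Ephx2 stand alone near 100%, and the neighbours of Rcbtb1 run from 0% to 99.1%.

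The total level of the 4 genes also differed between lines, in patterns of their own. Nefm was high in d3: 110.3 and 79.4 CPM in the parental libraries and 132 and 76.0 CPM in those of clone 12. The next line was i7 clone 7 at 52.2 and 36.1 CPM, followed by the i7 parental line at 26.2 and 24.8 CPM, and neither overlapped the line below it. From i7 clone 12 (21.2 and 12.3 CPM) down to the i10 parental line (9.33 and 4.23 CPM) each line overlapped the next in the order. The d3 parental line and d3 clone 12 overlapped each other and lay above every other library.

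Nefl was highest in the d3 parental line at 21.6 and 20.8 CPM, followed by d3 clone 12 at 23.1 and 12.4 CPM. Its order outside d3 clone 21 ended with the i12 parental line (6.42 and 2.80 CPM) and i7 clone 12 (5.89 and 3.18 CPM). No step in its order was larger than the spread, since every line overlapped the next down to i7 clone 12. Over the 22 libraries its lowest, median and highest levels were 2.80, 7.73 and 23.1 CPM, and those of Nefm 4.23, 21.2 and 132 CPM.

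Ephx2 ran the other way. Outside d3 clone 21, its lowest lines were d3 clone 12 (16.3 and 8.97 CPM) and the d3 parental line (13.5 and 15.5 CPM), below every other of the 22 libraries. Next came i7 clone 12 at 28.8 and 18.9 CPM, which lay below all libraries of the 8 lines above it. At the top stood i10 clone 18 (38.2 and 74.2 CPM) and the i10 parental line (37.7 and 68.8 CPM), whose replicates were far apart.

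Rcbtb1 varied least, from 33.9 to 64.7 CPM over the 22 libraries with a median of 43.4 CPM. Among these it was lowest in the d3 parental line (33.9 and 37.1 CPM) and highest in the i12 parental line (49.7 and 64.7 CPM). Neighbouring lines in its order overlapped, apart from the step from the i10 parental line (45.5 and 43.5 CPM) to i10 clone 18 (40.3 and 42.2 CPM) and the step down to d3 clone 21.

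Among the 4 parental lines that the choice of genes had not used (d6, i7, i12 and i10), none of the 4 genes was called as differing by edgeR's quasi-likelihood F test, with adjusted p-values of 0.329 for Nefl, 0.397 for Nefm, 0.480 for Rcbtb1 and 0.532 for Ephx2. Over all genes 2.6% were called. The unadjusted p-values were 0.0713, 0.109, 0.166 and 0.213 in the same order, all above 0.05, and DESeq2 called none either. Without the filter on low counts, edgeR's test called Nefm (adjusted p 1.05e-05) and Nefl (0.00422), where 1822 of 30383 genes were called. With a term for the replicate number Nefm, Nefl and Ephx2 were called, where 30.5% of all genes were.

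**Figure D4:**
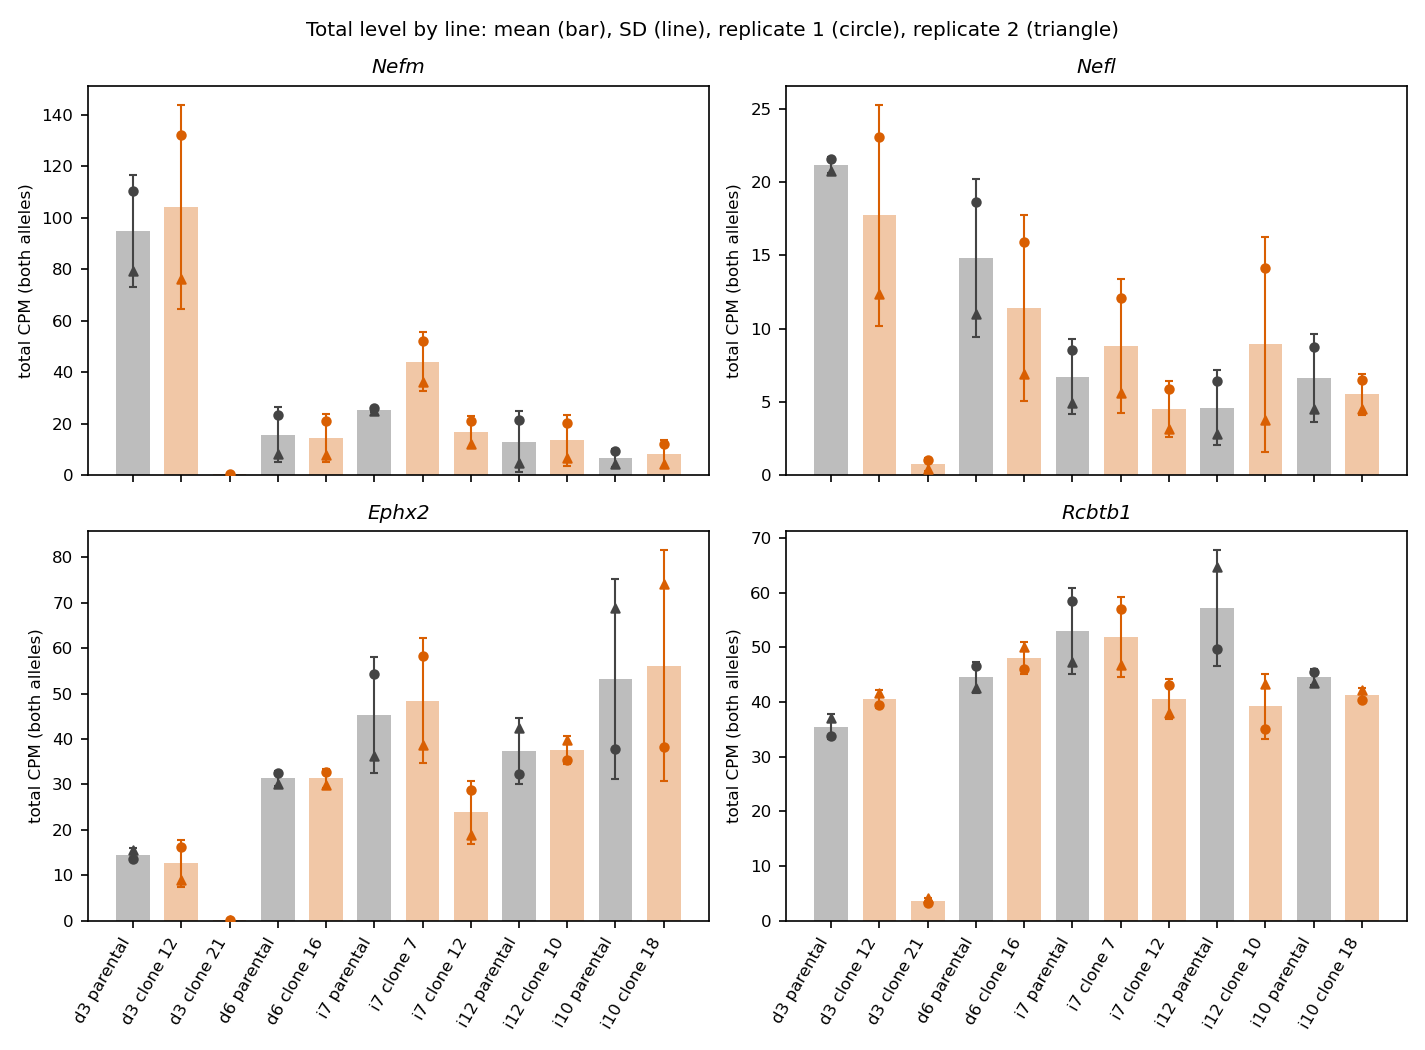
Total CPM of both alleles (y axis, linear from 0) of each gene in each of the 12 lines, with the mean of 2 replicates as a bar, the SD as a line and the replicates as a circle (1) and a triangle (2); parental lines are grey and recombined clones orange. Outside d3 clone 21, Nefm stands highest and Ephx2 lowest in d3 parental and d3 clone 12, and in d3 clone 21 all 4 genes are lower still, with Rcbtb1 at 3.68 CPM and the others under 1 CPM.

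In the other clones no total of the 4 genes was called in the fit without a replicate block. Of 24 comparisons with the parental line, 4 genes in each of 6 clones, 0 were called by edgeR's quasi-likelihood test, and DESeq2 also called 0. The background was low too: of all genes tested, 0.0246% were called in i7 clone 12 and 0.0123% in each of d3 clone 12 and d6 clone 16. In i10 clone 18, i12 clone 10 and i7 clone 7 it was 0%. Unadjusted p-values under 0.05 by edgeR's test were found in 2 of the 24. Of all 16253 genes tested, 713 had such a value in d3 clone 12 and 122 in d6 clone 16. It was 128 genes in i10 clone 18 and 48 in i7 clone 7. In the clones of these 2 comparisons, it was 1006 genes (i7 clone 12) and 213 genes (i12 clone 10).

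The larger change among these 2 comparisons was that of Ephx2 in i7 clone 12. Its level was 54.3 and 36.2 CPM in the i7 parental libraries and 28.8 and 18.9 CPM in the clone, without overlap. The log2 change was -0.92 (SE 0.356), with an unadjusted p of 0.0187 and an adjusted p of 0.628 by edgeR's test. In i7 clone 7, compared with the same parental libraries, Ephx2 was at 58.2 and 38.7 CPM and its log2 change was 0.10 (SE 0.3503). With a replicate block, edgeR's test called Ephx2 (-0.93, adjusted p 0.00453) and Nefm (-0.66, adjusted p 0.0326) in i7 clone 12, where 6.27% of all genes were called.

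The other was Rcbtb1 in i12 clone 10, at 49.7 and 64.7 CPM in the parental line and 35.0 and 43.3 CPM in the clone, again without overlap. The log2 change was -0.55 (SE 0.188), with an unadjusted p of 0.00947 and an adjusted p of 1.00 by edgeR's test. Rcbtb1 in i7 clone 12 was at -0.38 (SE 0.183, adjusted p 0.809), with 58.5 and 47.4 CPM in the parental libraries against 43.1 and 38.0 CPM.

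The neurofilament genes had wider errors. The highest value was Nefl in i12 clone 10, at 0.98 (SE 0.664, adjusted p 1.00 by edgeR's test), where the clone libraries held 14.1 and 3.77 CPM and the parental ones 6.42 and 2.80 CPM, which overlap. Leaving out 1 library moved this value from -0.30 (without i12 clone 10 replicate 1) to 1.71 (without i12 parental replicate 1). Nefm in i7 clone 7 was at 0.79 (SE 0.633), with 52.2 and 36.1 CPM against 26.2 and 24.8 CPM, and in i7 clone 12 at -0.61 (SE 0.640), with 21.2 and 12.3 CPM. In d3 clone 12, the clone that shares its parental line with d3 clone 21, the 4 log2 changes lay between -0.25 (Nefl, SE 0.569) and 0.19 (Rcbtb1, SE 0.183). Whether the effects of the 5 clones outside d3 differed was tested in 1 joint test, which called none of the 4 genes (adjusted p 1.00 for each by edgeR's test, with 0.0369% of all genes called).

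The ratio of 129S1 to CAST did not pass the test in any of 24 comparisons of a clone with its parental line either. Of all genes tested, 1.47% were called in i7 clone 12, 0.0431% in d3 clone 12 and 0.0369% for d6 clone 16. The background was 0.00615% for i12 clone 10 as well as i7 clone 7, and 0% for i10 clone 18. The best measured of them, Rcbtb1, had log2 differences of the ratio between -0.68 (SE 0.522, d3 clone 12) and 0.48 (SE 0.486, i7 clone 7), and its 129S1 share pooled by line ran from 94.5% (i10 clone 18) to 98.1% (i12 parental). The value of Rcbtb1 in d3 clone 12 rests on single libraries: it was -2.43 without d3 parental replicate 1 and 0.05 without d3 parental replicate 2. For Nefm in i7, the parental libraries held 7 and 5 CAST counts of 200 and 281, those of clone 7 held 1 and 5 of 441 and 517, and those of clone 12 held 1 and 0 of 219 and 163. The log2 differences were 1.99 (SE 0.707, unadjusted p 0.00986, adjusted p 1.00) and 2.91 (SE 1.01, unadjusted p 0.00818, adjusted p 0.376) by edgeR's test. Ephx2 gave unadjusted p-values under 0.05 in i7 clone 12 (0.0239) and i10 clone 18 (0.0359) against parental lines without a CAST count, where the fitted ratio has no fixed size, and its adjusted p-values were 0.751 and 1.00. These ratios of Nefm and Ephx2 rest on 0 to 7 CAST counts per library.

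Replicates of 1 line differed in a way that separated the neurofilament genes from the other two. Nefm was higher in replicate 1 than in replicate 2 in 11 of 11 lines outside d3 clone 21, by a median of 2.21-fold, from 1.06-fold in the i7 parental line to 4.42-fold in the i12 parental line. Nefl was higher in replicate 1 in 11 of 11 lines too, by a median of 1.86-fold, from 1.04-fold in the d3 parental line to 3.74-fold in i12 clone 10. For Ephx2 this held in 6 of 11 lines and for Rcbtb1 in 5. Of 12715 genes that averaged at least 20 counts, 3.33% were higher in replicate 1 in all 11 lines. The summed neural genes were higher in replicate 1 in 5 of the 11 lines, with a median ratio of 0.949. The labels do not say what replicates of the same number share, and the part of handling in this pattern was not tested.

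Over the 22 libraries outside d3 clone 21, the level of Nefm followed that of Nefl with a Pearson r of 0.74 (log2 of CPM plus 0.5). Nefm ran against Ephx2 with an r of -0.66, and Ephx2 ran with Rcbtb1 at 0.52. Many genes were more alike: of 12714 genes, Nefl was number 332 in likeness to Nefm, and Rcbtb1 number 1492 in likeness to Ephx2. The libraries come in pairs of the same line and share parental lines, so these values describe the set and carry no test. Of 12714 genes, those most like Nefm were Ckap4 (r 0.92), Masp1 (0.92) and Tdrd3 (0.92). Those most like Nefl were Kdm2b (0.92), Ino80c (0.91) and Rsl24d1 (0.91). For Ephx2 they were Aldh2 (0.88), a mitochondrial aldehyde dehydrogenase gene, Gcnt2 (0.87) and Mettl7a1 (0.87), and for Rcbtb1 Ogfod1 (0.82), Ext2 (0.77) and Rbbp9 (0.74). Of these 12 genes, Tdrd3 lies on chromosome 14.

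Relatives of the 4 genes by function had lower 129S1 shares. Of 8 further intermediate filament genes of neurons and progenitor cells, 7 passed the filter on low counts (Gfap did not), and their 129S1 shares had a median of 51.8%. The heavy neurofilament gene Nefh stood at 50.03%, Ina, the α-internexin gene, at 34.8%, and Nes, which encodes nestin, at 51.8%. Vim, the vimentin gene, was the highest at 78.7% and the only 1 of the 7 with 129S1 called higher in each of the 10 lines, a share near the 13% of all tested genes. None of the 7 was called in total in any of the 6 clones, where 0% to 0.0246% of all genes were.

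Of 11 further genes of epoxide hydrolases and related enzymes, 4 passed the filter on low counts. Ephx1, which encodes the microsomal epoxide hydrolase, had a 129S1 share of 42.5% and Lta4h, the leukotriene A4 hydrolase gene, one of 43.5%, while Mest was at 80.5% and was called with 129S1 higher in each of the 10 lines. All 14 further genes with RCC1 repeats or tied to BTB proteins passed the filter. Their median share was 53.7%, with Cul3 at 62.0% and Rcc1 at 52.8%, and 2 of them (Herc1 at 79.4% and Rccd1 at 87.9%) had 129S1 higher in each of the 10 lines. Another 2 of the 14 had CAST higher in each, against 13.7% of all tested genes. The counts with 129S1 higher, 1 of 4 and 2 of 14, stand beside 13% of all tested genes and are no result about the lists. Rcbtb2, the closest relative of Rcbtb1 and also on chromosome 14, had a share of 73.8%, and its total changed by -0.83 (log2) in d3 clone 21. No gene of the 3 lists had a share as high as that of Rcbtb1. Of 12715 genes that averaged at least 20 counts, 4.24% had one, so this is no result about the lists. None of the list genes was called in total in any of the 6 clones, against the same low background.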

How the data were processed

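Poly(A) RNA of 24 libraries was sequenced as stranded single-end libraries, per the labels' protocols. The table deposited by the authors holds raw counts per gene for a 129S1 and a CAST allele. The submitters' processing notes name STAR, SAMtools and mm10. The counting program, its strand setting and what was done with reads that cover no variant are not given in the sources used here, and reads shared by similar genes or lost to mapping differences between the genomes would change an allelic share.

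Identifiers were matched to GENCODE M21 (48838 of 48985). Counts of both alleles were added for totals. edgeR 4.0.16 (R 4.3.3) with TMM scaling, filterByExpr on the 12 lines (16253 genes kept) and the quasi-likelihood test was fitted to all 24 libraries with 1 coefficient per line. A second fit took the 48 allele columns with 1 coefficient per library and 1 allele coefficient per line. P-values were Benjamini-Hochberg adjusted over all genes tested. Library totals of 3286819 to 15581094 counts set the precision. Intervals are at 95% (Wilson for shares, exact binomial for ratios of summed counts), and the floor is 3 counts. No library was a copy of another (chi-square per degree of freedom at least 2.53 for any pair). Between the 2 replicates of a line this value ran from 9.77 to 54.8. By this measure some libraries of different lines were more alike than replicates of any line. Both tests were checked on simulated counts. The rule for named genes took the 4 genes, at most 4 genes of each list, the 5 nearest tested neighbours on each side, the 3 genes most alike in level and the genes next to the 4 in rank; other genes named on chromosome 14 were chosen after their values were seen. The 4 genes and the lists were chosen with earlier results of these data known. Alternatives with DESeq2 1.42.0, other scaling and filters, a replicate block, single comparisons and omitted libraries were run.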

Additional observations from a re-analysis of the deposited data

How the results depend on the processing

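No call on the 4 genes was lost or reversed under other scaling, DESeq2, fits of single comparisons or leaving out any 1 library. A replicate block (the replicate number, fitted per recombination) raised the genes called in total counts from 0 to 2 of 24, both in i7 clone 12: Ephx2 at -0.93 (adjusted p 0.00453) and Nefm at -0.66 (adjusted p 0.0326) by edgeR's test. Among the 4 parental lines it raised the calls from 0 to 3 (Nefm 0.00127, Nefl 0.00434 and Ephx2 0.0296, with 30.5% of all genes called). Without a filter on low counts edgeR's test called 2 (Nefm 1.05e-05 and Nefl 0.00422), where 1822 of 30383 genes were called. The labels do not tie replicate numbers to a shared culture or day, and each comparison has only 2 pairs. The replicate differences of a clone and its parental line correlated over genes at 0.36 to 0.62. The spread left between libraries (common biological coefficient of variation, total counts) was 0.246 without the block and 0.119 with it. The fit without the block, which gave 0 of 24, thus carries replicate differences that lines shared. What those differences stem from was not tested. In all genes tested, calls in i7 clone 12 went from 4 to 1019 with the block, 266 in its own libraries, 123 without a filter and 76 by DESeq2, and calls among parental lines from 423 to 4964, 1822 without a filter and 1177 by DESeq2. A mean of at least 10 counts in each allele left the allelic calls at 10 instead of 40, because only Rcbtb1 passed that filter. Without 1 of the 4 d3 libraries, the log2 change of the total in d3 clone 21 ranged from -9.12 to -7.37 for Nefm, -5.64 to -4.31 for Nefl, -7.42 to -6.47 for Ephx2 and -3.44 to -3.12 for Rcbtb1. Depth limits the CAST values: at most 10 counts per library for Nefm, Nefl and Ephx2 outside d3 clone 21.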
